A study of Arabidopsis thaliana with 12 samples.

Results

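Ribosome load in steady low light was described for 7444 protein-coding genes of Arabidopsis thaliana, by comparing 3 libraries of ribosome-protected fragments (RPF, the pieces of mRNA that a ribosome shields from nuclease) with 3 libraries of total RNA. A gene was included when each of the 3 total RNA libraries held at least 20 counts for it. This took 7371 of 26710 nuclear and 73 of 79 plastid protein-coding genes, or 7444 of 26789 in all. At the edge of this rule, 242 genes had a lowest total RNA count of exactly 20 and 248 of exactly 19. The 6 libraries belong to a series of 12. All plants were Col-0 wild type, without transgene or chemical treatment named in the labels, and whole rosettes were harvested at midday. Plants were 3 weeks old when moved to dim light (8 µmol m-2 s-1), where they stayed for 10 days. The other 6 libraries, RPF and total RNA again, came from plants given a further 10 min of strong light (800 µmol m-2 s-1). Polysomes for RPF were pelleted through sucrose and digested with RNase If, and total RNA was taken from extract in the same buffer and depleted of rRNA. A rosette mixes leaf cell types, so each ratio is an average over them, and fewer cells of a type cannot be told apart from less RNA per cell.

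The ratio of RPF to total RNA, often called translational efficiency, compares a gene's share of footprints with its share of RNA. A transcript that ribosomes load often, or cross slowly, gathers more footprints. In leaf cells cytosolic ribosomes translate the nuclear mRNAs, while bacterial-type ribosomes inside plastids translate the small set of genes that plastids keep, mostly for photosynthesis and for the plastid's own transcription and translation.

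Ratios were spread around a median near equality. The fitted log2 ratio of RPF to total RNA had a median of 0.01 over the 7444 genes, quartiles of -0.37 and 0.37, and 5th and 95th percentiles of -0.99 and 1.02. At a Benjamini-Hochberg adjusted p under 0.05 (edgeR quasi-likelihood test with a block for pairs), the higher genes numbered 691, which is 9.28% of those tested, and the lower genes 475, which is 6.38%. Of these, 378 were at least 2-fold higher (5.08%) and 314 at least 2-fold lower (4.22%). Plain CPM (counts scaled by library size alone), without the TMM scaling that sets the typical gene near 0, moved the median by 0.52 and gave 2847 higher against 133 lower calls. All ratios below are therefore relative to the median gene, and levels are TMM-normalised CPM, which are not per length. Across genes the pair ratios had Pearson correlations of 0.56 (pairs 1 and 2), 0.42 (pairs 1 and 3) and 0.66 (pairs 2 and 3). Without pair 2 the calls were 202 higher and 84 lower, and without pair 1 they were 766 and 637. Without the block for pairs they were 328 and 205.

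**Figure D1:**
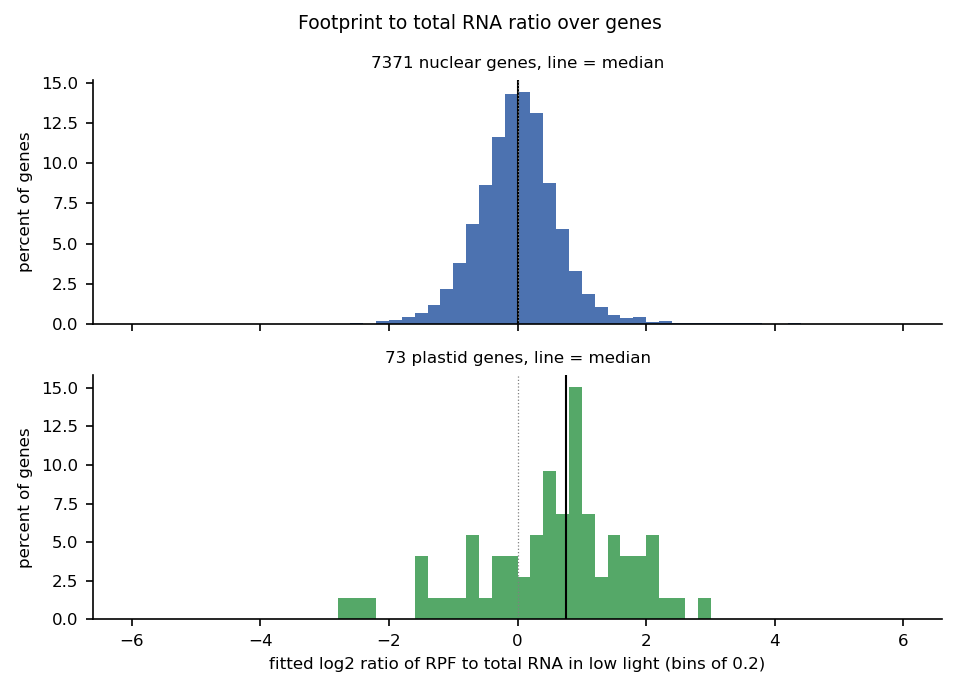
Percent of genes (y axis) by fitted log2 ratio of RPF to total RNA in low light (x axis) for nuclear and for plastid genes. The nuclear median is at 0.01 and the plastid median at 0.75, and plastid genes spread more widely (SD 1.17 against 0.64).

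The libraries differed in depth and make-up. Protein-coding counts ran from 1278921 to 2119227 in the RPF libraries and from 2438332 in total RNA library 1 to 10146235 in total RNA library 2. RPF library 1 stood apart, with 82.7% of all its counts in rRNA genes against 4.78% and 7.03% in libraries 2 and 3. It also held counts in genes where the other RPF libraries were nearly empty: 281 counted genes had at least 50 counts in RPF library 1 and at most 1 in each of the others, 202 of them tRNA genes. Of the 7444 genes 6 had this pattern, namely rpl2, rps7 and ycf2 of the plastid and AT2G07671, AT2G07687 and AT2G07741 of the nucleus. For rpl2 the RPF counts were 2252, 0 and 0 against 32, 802 and 510 in total RNA, and these 6 genes are not described singly. Without the 3 plastid ones the plastid median below goes from 0.75 to 0.78. Leaf identity was checked with the mesophyll markers RBCS1A, CAB1 and CA1, which summed to 14458 to 14706 CPM in total RNA, while the 4 flower and seed markers summed to at most 0.478 CPM in total RNA and 0 in RPF. The 3 root markers summed to 46.9 to 70.0 CPM in total RNA and 40.5 to 65.4 in RPF. All of this came from PYK10, as PRP3 and EXP7 had 0 counts in every library.

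Plastid-encoded genes had higher ratios than nuclear genes at the median, but the pair with the most total RNA, psbA and rbcL, lay far below 0. The next in total RNA, psbC, psaA, psaB, psbB and psbD, were at 0.85, 0.75, 0.96, 0.25 and 0.92. The plastid median was 0.75 over 73 genes, and 0.87, 0.77 and 0.28 in pairs 1, 2 and 3. By the test across all genes 28 plastid genes were higher (38.4%) and 6 lower (8.22%), against 8.99% and 6.36% of nuclear genes. Across the plastid genes the Spearman correlation of the ratio with total RNA CPM was -0.27 in low light and -0.26 with the high-light total RNA, which did not enter the ratio. The genes share libraries and operons, so these correlations are descriptions.

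The psbA gene, for the D1 protein of the photosystem II reaction centre, lies at plastid positions 383 to 1444 on the minus strand (TAIR10). Its level was 500029, 641211 and 397956 CPM in total RNA libraries 1, 2 and 3, and 77695, 79376 and 109190 CPM in RPF libraries 1, 2 and 3. All RPF libraries lay well below all total RNA libraries. The log2 ratio was -2.52 (SE 0.26, edgeR adjusted p = 9.3e-05), and -2.69, -3.01 and -1.87 by pair. DESeq2 with the same block gave the same size but no call (adjusted p = 0.0724). After high light the fitted ratio was -1.31, a difference of 1.22 (SE 0.56) that was not called. The smallest adjusted p of this edgeR test over all genes was 0.9997, so the missing call does not show an unchanged ratio. As a percentage of RPF protein-coding counts, psbA ran from 9.50% to 12.6% without strong light and from 20.9% to 24.5% with it. These RPF ranges do not overlap, while those for total RNA, 35.4% to 48.7% and 39.1% to 49.3%, do. The shares were not tested between light conditions.

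The mean plastid share was lower in RPF than in total RNA with psbA counted, but not with psbA left out. Plastid genes took 47.6% ± 4.69 (SD, n = 3) of protein-coding counts in RPF and 65.2% ± 3.59 (SD, n = 3) in total RNA, without overlap (exact permutation test, two-sided p = 0.1, the smallest that 3 against 3 can give, and 0.133 after Benjamini-Hochberg adjustment over 4 shares). The psbA share alone was 10.6% ± 1.71 (SD, n = 3) in RPF and 42.3% ± 6.67 (SD, n = 3) in total RNA, with the same p. With psbA left out, plastid genes took 41.4% ± 5.20 (SD, n = 3) in RPF and 39.7% ± 0.991 (SD, n = 3) in total RNA, and the groups overlapped (exact permutation test, two-sided p = 0.7).

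The Rubisco large-subunit gene rbcL (positions 54958 to 56397, plus strand) was also low. It had 87919, 95382 and 109238 CPM in total RNA and 34518, 38532 and 36879 in RPF, again without overlap. The log2 ratio was -1.41 (SE 0.22, edgeR adjusted p = 0.00114), with pairs at -1.35, -1.31 and -1.57. For the nuclear small-subunit gene RBCS1A the levels were 2684, 2681 and 2795 CPM in total RNA and 2792, 2269 and 2715 in RPF. These groups overlapped, at a ratio of -0.08 that was not called (edgeR adjusted p = 0.851). Other RBCS genes are close copies: RBCS1B had 377 CPM in RPF library 1 and 75.7 and 62.5 in libraries 2 and 3, so their ratios are uncertain. RBCS2B and RBCS3B, at -0.88 and -0.46, were not called with all pairs. Without pair 1 edgeR called both lower, at -1.70 and -1.01 (edgeR adjusted p = 7.02e-05 and 0.0131).

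Within photosystem II the 15 tested plastid genes ran from -2.52 to 2.09, with 6 higher and 3 lower. The shares were 38.4% and 8.22% of plastid genes, and 9.28% and 6.38% of all genes. The core genes psbD (D2 protein) and psbC (CP43 antenna) were higher at 0.92 and 0.85, but they overlap on the same strand. The core antenna gene psbB (CP47) was at 0.25 and not called (edgeR adjusted p = 0.518). The neighbours psbE, psbF, psbL and psbJ, for cytochrome b559 and small subunits, had ratios of -1.40, -0.38, -0.66 and -1.55, of which psbE and psbJ were lower. The small-subunit genes psbK, psbI, psbZ and psbT were higher, at 1.00, 0.92, 2.06 and 2.09. Their pairs disagreed for psbT (-0.33, 3.37 and 2.88), and for psbZ they were 0.77, 2.46 and 2.90. Only 1 photosystem II gene was higher without pair 2, without pair 3, or without the block, whereas 3 or 4 were lower.

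In photosystem I the reaction-centre genes psaA and psaB were higher (edgeR adjusted p = 0.0378 and 0.0173). The assembly factor gene ycf4, with 249, 682 and 692 CPM in total RNA and 1220, 1793 and 1221 in RPF, was also higher (edgeR adjusted p = 0.00433). The iron-sulphur subunit gene psaC was lower at -0.95 (SE 0.23, edgeR adjusted p = 0.0143). Without the block none of these 4 was called (adjusted p = 0.104, 0.0576, 0.0537 and 0.0934), and psaA, psaB and psaC also lost their calls without pair 2 or without pair 3. Of 6 cytochrome b6f genes edgeR called petN, a small subunit at positions 28089 to 28178, and limma-voom also petA, for cytochrome f, at 0.84 (limma-voom adjusted p = 0.0432, edgeR adjusted p = 0.0772). The petN gene had 776, 942 and 634 CPM in total RNA and 196, 144 and 155 in RPF, a log2 ratio of -2.24 (SE 0.26, edgeR adjusted p = 0.000151). The groups were far apart in every pair. Of 6 ATP synthase genes edgeR called atpF and atpI higher, at 0.94 and 0.86, where 38.4% of plastid genes were higher. The atpB and atpA genes, at 0.49 and 0.76, were not called by edgeR, though limma-voom called atpA (adjusted p = 0.0491). Neither edgeR call held without pair 1, without pair 2 or without the block.

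The NDH complex, which carries cyclic electron flow in thylakoids, and the plastid's bacterial-type RNA polymerase had the highest list medians, both 1.54. Of 9 tested ndh genes (of 12 listed) 6 were at least 2-fold higher, and so were all 4 rpo genes. Over all genes 5.08% were at least 2-fold higher, and of plastid genes 38.4% were higher at any size. The ndhE gene (positions 117804 to 118109, minus strand) had 163, 173 and 118 CPM in total RNA and 865, 998 and 685 in RPF. Its ratio of 2.49 (SE 0.24, edgeR adjusted p = 8.45e-05) was 2.41, 2.53 and 2.54 by pair. The low psaC lies beside it on the same strand, at positions 117318 to 117563. The genes ndhI, ndhF, ndhG, ndhH and ndhA followed at 2.09, 1.95, 1.70, 1.54 and 1.45. A separate cluster of ndhJ, ndhK and ndhC, at positions 48677 to 50363, had ratios of -0.44, -0.07 and -0.11, none of them called.

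The polymerase genes rpoC1, rpoB, rpoA and rpoC2 were at 1.29, 1.47, 1.60 and 1.88. For rpoC2 the levels were 253, 472 and 580 CPM in total RNA and 1518, 1651 and 1384 in RPF. RPF exceeded total RNA in every library, and the gap was widest in pair 1, where total RNA was lowest. List medians by pair were 2.15, 1.58 and 0.96 for rpo and 2.23, 1.44 and 0.74 for ndh. With any 1 pair left out there were again 4 and 6 higher genes, and without the block 3 and 4. Total RNA library 1 was the shallowest of its kind, and its part in the larger pair 1 values was not tested.

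Plastid genes for the plastid ribosome had a median of 0.65 over 20 tested of 26 listed, with 5 higher, where 38.4% of all plastid genes were. The highest were rps15 at 2.05, rpl22 at 1.85 and rps3 at 1.64, the last pair overlapping each other. Without rpl2 and rps7 the median was 0.77 and the pair medians were 1.61, 0.64 and 0.12. Without the block 1 gene of the 20 was called higher. Outside these complexes cemA, an envelope protein linked to carbon uptake, had 328, 358 and 330 CPM in total RNA and 1695, 2088 and 1389 in RPF. Its ratio was 2.33 (SE 0.25, edgeR adjusted p = 9.32e-05). The ycf1 gene, for a component of the inner envelope import machinery, was at 2.99 (edgeR adjusted p = 9.3e-05). The protease gene clpP, at -0.22, and the fatty-acid synthesis gene accD, at 1.05 (edgeR adjusted p = 0.0551), were not called.

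**Figure D2:**
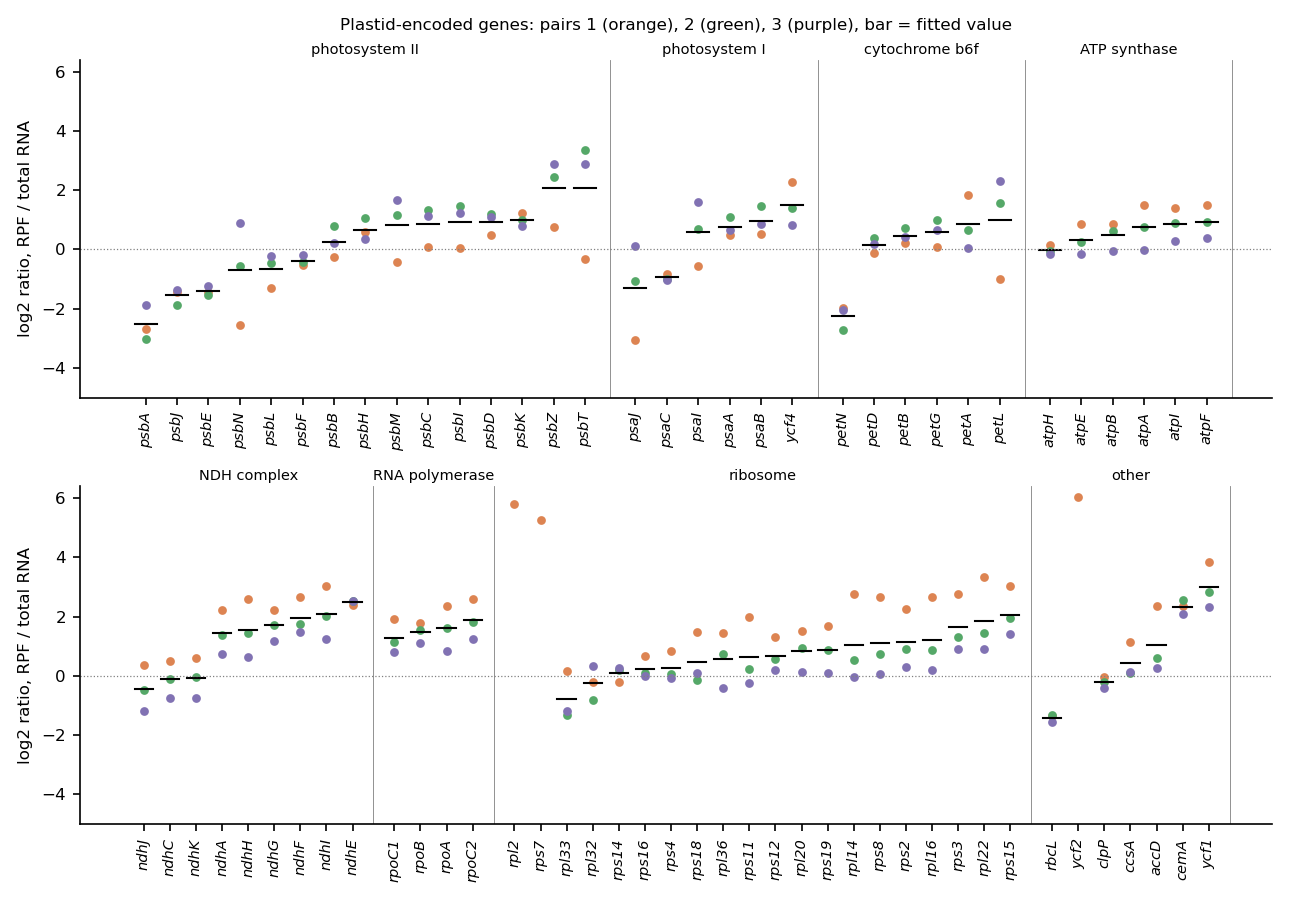
Log2 ratio of RPF to total RNA (y axis) for tested plastid genes (x axis) by complex, with points for pairs 1, 2 and 3 and bars for the fitted value. Values for psbA, petN, psbJ, psbE and rbcL lie below 0 in all pairs and those for the 4 rpo genes above 0, and rpl2, rps7 and ycf2 have no bar.

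Among nuclear lists the proteins of the cytosolic ribosome had the lowest medians. Of 85 small-subunit genes 70 were tested, with a median of -0.73 and 26 lower. Of 118 large-subunit genes 102 were tested, with a median of -0.67, 36 lower and 2 higher. Among all genes 6.38% were lower and 9.28% higher. In 43 genes of each list every RPF library lay below every total RNA library, which held for 14.2% of all genes. The size differed between pairs, with medians of -0.70, -1.27 and -0.23 for the small and -0.51, -1.18 and -0.22 for the large subunit. Without pair 2 the lower genes numbered 8 and 4, at medians of -0.45 and -0.38, and without the block 16 and 19. In the high-light libraries the medians were -0.62 and -0.65.

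RPS15A (chromosome 1, 2408203 to 2409580), for a small-subunit protein, had 96.1, 114 and 67.2 CPM in total RNA and 22.6, 25.5 and 28.7 in RPF. Its ratio of -1.82 (SE 0.25, edgeR adjusted p = 0.000433) was the lowest of its list. In the large-subunit list AT1G74270 was lowest at -2.04, though not called without pair 2 (adjusted p = 0.0521), and RP1, which had the most counts, was at -0.49 and not called. Against the trend, AT1G04480 had 20.1, 45.0 and 19.4 CPM in total RNA and 156, 357 and 347 in RPF, a ratio of 3.37, and AT1G27400 was at 1.65. These proteins come from near-identical gene copies whose reads may be shared. AT1G04480 is listed as a copy of RPL23 with AT2G33370 and emb2171, at -1.03 and -1.06, and the 3 summed gave 0.18, 0.42 and 1.43 by pair. With the copies of each protein summed, the mean ratio was below 0 in 31 of 33 small-subunit and 38 of 46 large-subunit proteins, at medians of -0.74 and -0.65.

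Light-harvesting proteins, the antennae that bind chlorophyll for both photosystems, were low for some members and near equality for others. Of 20 genes 19 were tested, with a median of -0.57 and pair medians of -0.70, -0.66 and -0.60. Lower calls numbered 9, where 6.38% of all genes were lower. CAB1 (chromosome 1, 10478005 to 10479048), a copy of LHCB1, the main antenna of photosystem II, had 11743, 11871 and 11315 CPM in total RNA and 3541, 3121 and 3880 in RPF. The groups lay far apart, at a ratio of -1.73 (SE 0.23, edgeR adjusted p = 0.000393). The other LHCB1 copies CAB2, CAB3, LHB1B1 and LHB1B2 were lower at -1.65, -1.48, -1.38 and -1.18. The copies are near-identical, and their sum gave -1.41, -1.79 and -1.37 by pair.

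LHCB3 and LHCB5, at -0.99 and -0.91, and LHCA4 and LHCA2, at -1.05 and -0.84, were also lower. The minor antenna genes LHCB4.1, LHCB4.2 and LHCB6, at 0.05, -0.13 and -0.07, were not called. Nor were the 3 copies of LHCB2, whose sum was 0.59 in pair 1 and -0.40 and -0.45 in pairs 2 and 3. Without pair 2, or without pair 3, 6 genes were lower, and without the block 4. In high light the list median was -0.19 and CAB1 was at -0.73.

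**Figure D3:**
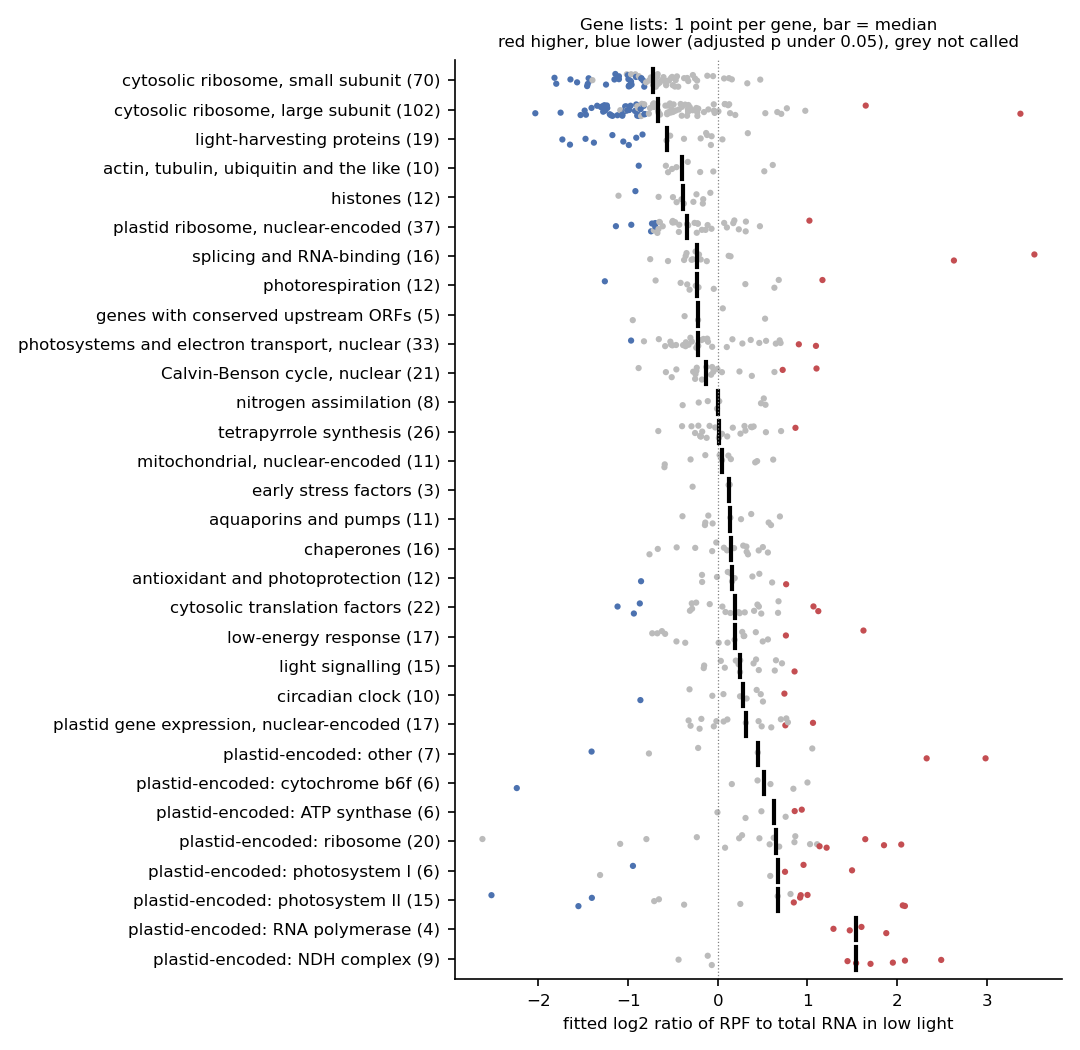
Fitted log2 ratio of RPF to total RNA in low light (x axis) for tested genes by list (y axis), with 1 point per gene and a bar at each median. The 2 cytosolic ribosome lists and the antenna list lie farthest left, at -0.73, -0.67 and -0.57, and the plastid polymerase and NDH lists farthest right, at 1.54.

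The counted span moved with the ratio. Counts cover whole genes, introns and untranslated ends included, while footprints lie mainly in coding sequence. Across 7371 nuclear genes the Spearman correlation of the ratio with span was 0.47, and across 73 plastid genes it was 0.21. The part of span in the plastid ratios above was not tested. In 5 groups of nuclear genes of equal size by span the medians were -0.40, -0.19, -0.02, 0.11 and 0.38 from shortest to longest. The shortest group, up to 1705 bases, held 283 lower and 96 higher calls, and the longest, from 4073 bases, 1 lower and 290 higher. The small-subunit, large-subunit and antenna lists have median spans of 1465, 1435 and 1224 bases. Relative to nuclear genes of like span, their medians were -0.37, -0.32 and -0.24. For histones the median went from -0.39 to 0.08, and for nuclear-encoded plastid ribosomal proteins from -0.34 to 0.04. Coding length was not used here, and its part in these ratios was not tested.

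**Figure D4:**
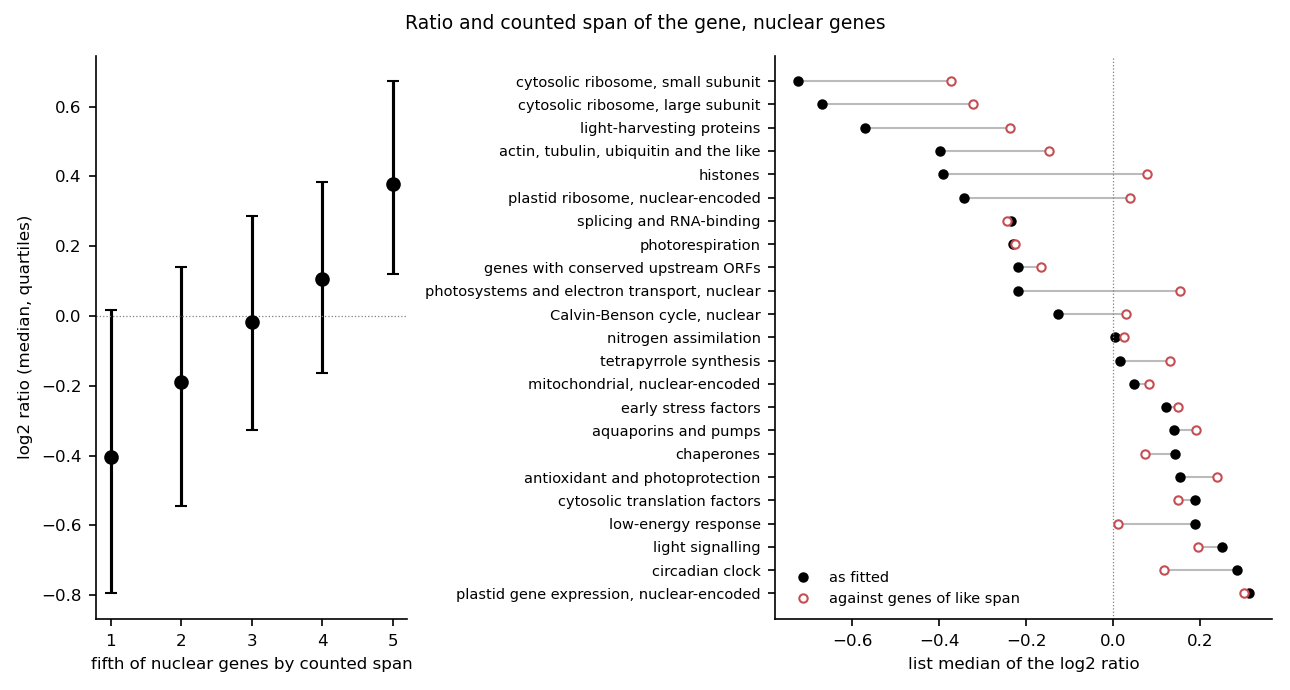
Left, log2 ratio of RPF to total RNA (y axis) of nuclear genes in 5 groups by counted span (x axis), with medians rising from -0.40 to 0.38. Right, medians of nuclear lists as fitted and relative to genes of like span, where the histone list goes from -0.39 to 0.08 and the small-subunit list from -0.73 to -0.37.

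Genes of carbon fixation were mostly near equality. Of 21 tested Calvin-Benson cycle genes (of 23) 2 were higher, where 9.28% of all genes were, at a list median of -0.13. These were CP12-1, a small regulator of the cycle, with pairs of -0.01, 1.14 and 2.17, and EMB3119 at 0.72. Neither was called when pair 2 or pair 3 was left out. Rubisco activase (RCA), at 0.38, was not called (edgeR adjusted p = 0.289). No gene of this list was lower with all pairs, but RBCS2B and RBCS3B were without pair 1.

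Photorespiration, the salvage of the product of Rubisco's oxygenation, had 1 higher and 1 lower of 12 tested genes, both in the glycine decarboxylase complex. Over all genes 9.28% were higher and 6.38% lower. GLDP1, the P protein, had 314, 209 and 444 CPM in total RNA and 570, 714 and 812 in RPF. GDCH, the H protein, had 107, 125 and 92.6 in total RNA and 53.2, 45.1 and 37.3 in RPF. Neither gene's groups overlapped, and the ratios were 1.17 (edgeR adjusted p = 0.00951) and -1.26 (edgeR adjusted p = 0.00239). Their counted spans are 4663 and 1117 bases, and relative to genes of like span the ratios were 0.91 and -0.79. The GLDP1 call was lost without pair 2 (adjusted p = 0.126) and without the block (adjusted p = 0.0633).

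Nuclear photosystem and electron transport genes had a median of -0.22 over 33 tested, with 2 higher and 1 lower. The shares of all genes were 9.28% higher and 6.38% lower. PSAG of photosystem I was at 0.90, PSBY of photosystem II at 1.09 and PSBR of photosystem II at -0.97. Without the block, or without pair 2, none of the 3 was called (adjusted p = 0.0768, 0.0537 and 0.113 without the block). PSBO1, of the oxygen-evolving complex, was at -0.39 and not called. Among 26 tested tetrapyrrole genes, which make chlorophyll and haem, edgeR called GUN4, an activator of magnesium chelatase, at 0.87. FLU, a repressor of the pathway, was at -0.66 and called by limma-voom (adjusted p = 0.0498) but not by edgeR (adjusted p = 0.0537). GUN4 was not called without pair 2, without pair 3 or without the block (adjusted p = 0.105, 0.159 and 0.195).

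Nuclear genes that serve plastid gene expression had a median of 0.31 over 17 tested, with 2 higher, where 9.28% of all genes were. These were SIGA, a sigma factor of the plastid polymerase, at 1.06 and SCA3, a phage-type plastid polymerase, at 0.75. Without the block neither was called (adjusted p = 0.0733 and 0.257), nor was SCA3 by DESeq2 or without pair 2 or pair 3. Of 37 nuclear-encoded plastid ribosomal proteins 6 were lower, where 6.38% of all genes were, and 1, EMB3136, higher at 1.02. The lowest of the 37 listed, AT5G65220, was at -1.14, and without pair 2 no gene of this list was called by edgeR. SSR16, a ribosomal protein of organelles that is not on this list, was at -1.69.

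Of 22 tested cytosolic translation factors 2 were higher and 3 lower, where 9.28% and 6.38% of all genes were. EIF4G, the scaffold of the cap-binding complex, had 79.4, 54.1 and 93.5 CPM in total RNA and 146, 157 and 180 in RPF, without overlap. Its ratio was 1.12 (edgeR adjusted p = 0.00716), or 0.62 relative to genes of like span (its own is 6806 bases), and the helicase gene EIF4A-2 was at 1.07. The lower genes were eEF-1Bb1, of the elongation factor 1B exchange complex, at -1.12, AT5G19510 at -0.94 and LSP1, a cap-binding protein, at -0.87. Without pair 2 none of the 5 was called by edgeR. Genes for elongation factor 1A are near-identical, and AT1G07920 had 313 CPM in RPF library 1 against 58.1 and 66.0 in libraries 2 and 3.

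Regulators were mainly near the median. Over all 7444 genes 3773 were above 0, and 9.28% were called higher and 6.38% lower. Of 15 tested light-signalling genes 13 were above 0. Their median was 0.25, or 0.20 relative to genes of like span (median span 3946 bases). Of these 15 only PIF4, a bHLH factor of low-light growth, was called, at 0.86. In the clock list, with 10 genes tested, GI was called at 0.74, or 0.24 relative to genes of like span (its own is 5873 bases). LCL1, a MYB-type factor, was called at -0.86. The low-energy list, with 17 tested and 2 higher, had AT1G80440 at 1.62 and AKINBETA1, a subunit of the SnRK1 kinase, at 0.76. The antioxidant list, with 12 tested, had SAPX, a stromal ascorbate peroxidase, at 0.76 and CSD1, a copper-zinc superoxide dismutase, at -0.86. PIF4, GI, LCL1, AKINBETA1, SAPX and CSD1 were not called without pair 2 (adjusted p = 0.202, 0.326, 0.225, 0.254, 0.201 and 0.331) or without the block. In the chaperone list 0 of 16 were called by edgeR, with 3 at an unadjusted p under 0.05, none by DESeq2 and 1 by limma-voom. In the nitrogen list 0 of 8 were called by edgeR, with 1 at an unadjusted p under 0.05 and none by DESeq2 or limma-voom. The aquaporin and proton pump list had 0 of 11 called by edgeR, with 3 at an unadjusted p under 0.05, none by DESeq2 and 1 by limma-voom. For nuclear-encoded mitochondrial genes edgeR called 0 of 11, with 3 at an unadjusted p under 0.05, and for genes with conserved upstream open reading frames 0 of 5, with 1, and neither DESeq2 nor limma-voom called any. Early stress factors had 3 tested of 14, with 0 called by edgeR, DESeq2 or limma-voom and 0 at an unadjusted p under 0.05. Among actin, ubiquitin and GAPC genes ACT8 was lower at -0.88, and among 12 histone genes AT5G59690 at -0.92. Neither was called without the block (adjusted p = 0.0866 and 0.347), without pair 2 or without pair 3, and AT5G59690 was not called by DESeq2 or limma-voom.

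By the rule for naming single genes, 241 nuclear genes were eligible. The lowest was DI19 (chromosome 1, 21072855 to 21074877), a zinc-finger protein named for induction by drought. Total RNA held 503, 773 and 379 CPM and RPF 52.0, 118 and 100. The ratio was -2.63 (SE 0.30, edgeR adjusted p = 0.000142), with pairs at -3.27, -2.71 and -1.92. EBP, an ethylene-responsive transcription factor, had 91.3, 115 and 36.7 CPM in total RNA and 15.8, 23.5 and 14.9 in RPF, a ratio of -2.08 (SE 0.27, edgeR adjusted p = 0.000322). Both were low in every pair. AT5G61310, at -2.48, had pairs from -4.71 to -0.19 and was not called without pair 2 (adjusted p = 0.0741) or by DESeq2 (adjusted p = 0.112). The other 9 of the 12 lowest were RPS15A, AT4G39200 and AT3G60245 of the cytosolic ribosome lists, CAB1, CAB2 and CAB3 of the antennae, SSR16, a ribosomal protein of organelles, at -1.69, AT2G15960 at -1.69 and AT1G08110 at -1.53.

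At the high end, PRP4, a proline-rich wall protein (chromosome 4, 18096809 to 18098565), had 307, 149 and 119 CPM in total RNA and 1050, 1224 and 1174 in RPF, a ratio of 2.71 (SE 0.31, edgeR adjusted p = 0.000151). FLA8, a fasciclin-like arabinogalactan protein, had 57.4, 35.9 and 45.3 CPM in total RNA and 189, 225 and 262 in RPF, with pair ratios of 1.72, 2.64 and 2.53. ELP, an extensin-like protein, was at 1.70. The 3 epidermis markers summed to 157 to 271 CPM in total RNA and 275 to 438 in RPF, with PDF1 at 3.23 and the others at 0.38 and -0.01, and the part of the epidermis in these ratios was not tested.

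The glycine-rich GRP7, an RNA-binding protein under clock control, had 970, 214 and 62.0 CPM in total RNA and 1802, 1636 and 990 in RPF. Total RNA varied more between libraries than RPF did. Its ratio was 2.63, with pairs at 0.89, 2.94 and 4.00, and GRP-3, another glycine-rich protein, was at 2.91, with pairs from 1.24 to 4.67. Both lost their calls without the block (adjusted p = 0.128 and 0.111). CCR1, a relative of GRP7, was at 3.53, with pairs of 1.81, 3.85 and 4.99. With 96 and 40 counts in total RNA libraries 1 and 3, it is not among the 12 highest by the naming rule. The rest of the 12 highest were AT2G10940 (2.73), AT1G49750 (2.07), ASPG1, an aspartic protease (1.99), AT3G50370 (1.84), AT5G47020 (1.83), COL4, a B-box factor (1.83), and AT3G14067 (1.81).

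**Figure D5:**
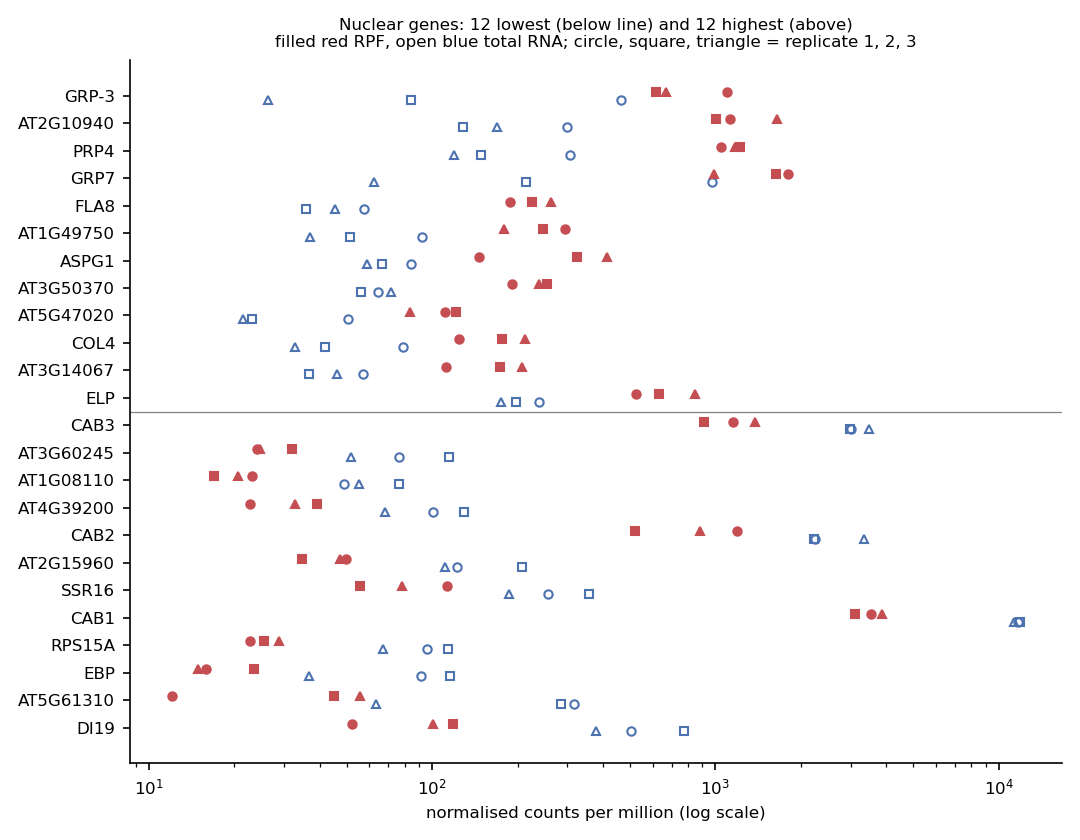
Normalised CPM (log scale) in each RPF and total RNA library for the 12 lowest and 12 highest nuclear genes. For GRP7 total RNA spans 62.0 to 970 CPM while RPF spans 990 to 1802, and for DI19 all RPF values, up to 118, lie below total RNA.

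The lowest ratios of all belonged to very short genes, named here after their values were seen. AT3G08520, with a span of 175 bases, had 2 counts in RPF and 286 in total RNA over 3 libraries each, a library-scaled ratio of 0.0200 with an exact 95% interval of 0.00241 to 0.0729 that covers counting error only. AT3G63052, with a span of 201 bases, had 5 and 598 counts.

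Non-coding transcripts were compared in a fit that added 31 such genes. Of 24 annotated as lncRNA (7) or ncRNA (17), 20 were below 0, at a median of -0.80, with 8 lower and 1 higher, where 14.8% of all genes in that fit were called in either direction. AT4G38932 was lowest at -3.30, with 4, 4 and 2 counts in RPF and 51, 138 and 57 in total RNA, and its span overlaps another gene. AT2G46192, annotated as ncRNA, was highest at 4.26. Of 5 small nuclear RNA genes 4, all of U2 type, were higher, at 5.24 to 7.40. Whether the non-coding and the cytosolic ribosome lists differ was not tested.

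The ratios in high light were similar in order. Fitted values correlated across the 7444 genes at a Pearson r of 0.88 and a Spearman rho of 0.84, as a description of libraries that share replicate numbers. Of the 1166 genes called in low light (15.7%), 1164 had the same sign in high light. For the difference between light conditions 0 genes (0%) were called by edgeR, with 106 at an unadjusted p under 0.05, and without the block 0 were called, with 76 at an unadjusted p under 0.05.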

How the data were processed

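The deposited values are raw counts per gene, made by the authors with featureCounts 1.5.0-p1 over whole gene spans, strand setting 1 for RPF and 2 for total RNA, per the file headers. The submitters' processing notes name cutadapt 1.9.1, Bowtie2 2.2.9, Subread 1.4.5 and TAIR10. Symbols and gene types came from a RefSeq gene table. No sequence was used here.

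Genes were tested with edgeR 4.0.16 (quasi-likelihood, R 4.3.3) on the 6 low-light libraries, with TMM scaling and the replicate number as a block. Library size was the protein-coding count, and mitochondrial and untyped genes were left out. Same-numbered RPF and total RNA libraries deviated together over 5374 genes (r = 0.28, 0.39 and 0.23), so the numbers were taken to pair them. The submitters' design text calls the RPF replicates biological, and p-values measure the spread between these libraries. On simulated data for this comparison with 7444 genes, 52% to 54% of 2-fold and 98% to 100% of 4-fold changes were recovered and 0.110% of unchanged genes called. The simulation changed only 50 genes at each log2 size of -2, -1, 1 and 2. Simulated counts took a spread set by expression level alone, not by the gene, and a pair effect shared by RPF and total RNA. In the data 15.7% of genes were called and pairs disagreed for some genes, so recovery and false calls there may differ. Shares used exact permutation tests (scipy 1.17.1). Alternatives were DESeq2 1.42.0, limma 3.58.1 (voom), other scalings and filters, no block, and each pair left out.

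The members and the 37 gene lists were chosen with earlier results of these data known. Of the listed identifiers 438 had the listed name as symbol or synonym in the reference table, and 274 did not. Named genes had at least 100 counts in each total RNA library, an adjusted p under 0.05, the same sign in all pairs and no overlapping gene: the 12 highest and 12 lowest nuclear and, overlap allowed, the 4 highest and 4 lowest plastid genes. The most counted, highest and lowest gene of each list, psbA and rbcL were added. Other names were chosen after their values were seen.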

Additional observations from a re-analysis of the deposited data

Results flagged for a closer look

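Mitochondrial genes, which no comparison used, held 5.43, 9.74 and 7.33 counts per 100 protein-coding counts in RPF libraries 1, 2 and 3, against 4.02, 0.586 and 0.562 in total RNA. Every RPF value lay above every total RNA value. The 146 mitochondrial genes counted had no gene type, so rRNA, tRNA and protein-coding genes were not separated. Total RNA was depleted of rRNA, and the part of rRNA in this difference was not tested.

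Genes of microRNA precursors, also unused, held 37.7, 1744 and 5605 CPM relative to protein-coding counts in RPF libraries 1, 2 and 3, against 24.2, 30.0 and 21.8 in total RNA. Of 18 counted genes with at most 1 count in RPF library 1 and at least 30 in library 2 or 3, 15 were microRNA genes.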

How the results depend on the processing

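With pairs left out in turn, higher calls ranged from 202 to 766 and lower calls from 84 to 637, and at least 2-fold from 200 to 521 and from 84 to 486. Without the replicate block 328 genes were higher and 205 lower, 194 of them at least 2-fold lower. Plain CPM gave 2847 and 133 (1472 and 75 at least 2-fold), DESeq2 with the block 454 and 280, and no filter on low counts 1075 higher (788 and 507 at least 2-fold). A minimum of 100 counts, which tests 1530 genes, gave 201 and 177 (84 and 79 at least 2-fold), and filterByExpr 676 at least 2-fold higher. The plastid share difference went from -17.7 to 1.69 percentage points without psbA, and from -20.0 to -14.8 with pairs left out. The cause was not tested, except that pairs left out and the minimum of 100 counts leave fewer samples or genes. The plastid minus nuclear median, 0.74, stayed between 0.49 and 0.82. Relative to the median of each setting, no named gene with a call in either fit changed sign. Sign changes of genes called in neither fit were not counted. Of 114 named genes 63 were called, of which 21 lost their call without the block and 20 without pair 2. The alternative on coding share was not run. RPF libraries of 1278921 to 2119227 protein-coding counts and 3 pairs limit calls near 2-fold. Simulated recovery there was 52% to 54%, without spread particular to single genes, so recovery in the data may differ.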

Other observations

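Nuclear genes were also grouped by symbol stem, after the values were seen, into 60 families of at least 8 tested genes. The fasciclin-like arabinogalactan (FLA) family of cell surface proteins had a median log2 ratio of 1.09, with 8 of 8 members above 0 and 5 higher: FLA8, FLA16 and, at 1.32, 1.13 and 1.05, FLA2, FLA1 and FLA17. Its pair medians were 0.25, 1.38 and 1.66, and relative to genes of like span its median was 1.14. The SYP syntaxins of vesicle fusion had a median of -0.60, with 2 of 9 lower, SYP23 at -1.34 and SYP52 at -1.22. Relative to genes of like span this median was -0.39. For both families the shares of all genes were 9.28% higher and 6.38% lower.

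Some genes with extreme ratios among all 7444 are named here after their values were seen, with no list of their kind tested. AGP9, an arabinogalactan protein, had 57.7, 76.4 and 108 CPM in RPF and 18.2, 4.02 and 3.63 in total RNA, a ratio of 3.61. LRX3, a leucine-rich repeat extensin, was at 3.48, with pairs of 1.92, 3.88 and 4.56. CWLP, a wall protein whose span overlaps another gene, was at 4.21, with pairs of 1.99, 4.77 and 5.70. Its total RNA levels were 128, 32.8 and 12.3 CPM. The highest was AT3G22142 at 4.65, with 57, 41 and 30 counts in total RNA and pairs of 3.06, 5.08 and 5.88. At the low end SPL3, a transcription factor known as a microRNA target, had 2.26, 1.31 and 2.87 CPM in RPF and 11.0, 10.8 and 7.96 in total RNA, a ratio of -2.17, and its span overlaps another gene.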
